A study of Brachypodium distachyon with 11 samples.

Results

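The 8 MADS-box genes that the RefSeq gene table of Brachypodium distachyon (assembly Bd21) identifies by symbol or synonym were examined for occupancy by 3 tagged regulators of flowering time. They were VRT-2 (gene 100821083, synonym SVP), LOC100845222 (AP1, FUL2a), MADS2 (gene 100836399), LOC100832541 (MADS4), AGL6 (gene 100822235), LOC100827009 (AGL13), LOC100839211 (AGL11) and LOC100843405 (SEP3). They are 8 of 25449 protein-coding genes on the numbered chromosomes of the table and span 5135 to 7395 bp each. The choice was made by name and not by a rule on occupancy, but with earlier results of these data known. Symbols and synonyms were taken as given, and orthology was not examined for any of the 8 genes. MADS2 and AGL6 carry no synonym in the table, and the table gives neither strand nor product, so the position of a peak is described from the lower-coordinate or the higher-coordinate end of the gene.

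MADS-box proteins are transcription factors that bind DNA as dimers and act in larger complexes. In flowering plants some members set the time of flowering, while others give floral meristems and floral organs their identity, and the latter are classed by the organs that they specify. In Arabidopsis, SVP represses flowering and AP1 marks the floral meristem, whereas in temperate cereals relatives of AP1 and FRUITFULL promote the transition from leaf to spike production.

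Occupancy was measured by ChIP-seq, in which DNA bound by a tagged protein is pulled down with an antibody (here against FLAG) and sequenced, in seedlings of accession Bd21-3. Brachypodium is a small wild relative of wheat and barley. The plants were 2 weeks old and kept at 20 °C. Each carried a FLAG-tagged protein expressed from the constitutive UBIQUITIN promoter in the study's lines, so the protein was neither at its native level nor confined to its native cells. The question posed was which genes ELF3, PHYC and PRR37 occupy and whether this depends on day length.

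ELF3, which scaffolds the evening complex of the plant clock, was profiled in 7 libraries from ELF3_OX seedlings. These came from long days (LD), short days (SD) and constant light (LL) at ZT0 (zeitgeber time, counted in hours from lights on), from LD and SD at ZT4, and from LD and SD at ZT20. PHYC, a phytochrome photoreceptor of red and far-red light, was profiled in 2 phyC_OX libraries with the same labels (LD, ZT20), and PRR37, a pseudo-response regulator also called PPD1, in 1 PRR37_OX library (LD, ZT4). Every condition other than that of PHYC had 1 library. Nothing in the labels ties the PHYC pair to different plants, and the spread between them may thus be technical only. No ChIP from plants lacking a tagged protein was analysed here, and the input sample was not used. A signal common to all 3 targets therefore cannot be told apart from one that the procedure gives without a target.

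Each library was represented by its deposited list of peaks, with the fold enrichment, −log10 p and q-value that MACS2 assigned. The lists held 12345 to 16458 peaks and reached down to a −log10 p of 1.0, so that 67.2% to 95.5% of the peaks in a list had a q-value of 1 and only 34 to 526 had a q-value under 0.01. The median fold enrichment of a list was 2.16 to 2.40. Sequencing depth was unknown. The strongest peak at a gene was therefore also given as a percentile, the rank of its −log10 p among the peaks of the same library, with 0 where no peak was listed. A gene was listed in a library when a peak touched the gene body or the 2 kb on either side of it. Within 1 Mb of the 8 genes, 53.5% to 73.5% of summits lay within 500 bp of an end of a protein-coding gene of the table, against 10.3% to 36.0% after shifting the genes by 10 kb, so the positions of the table were used to measure distances from genes.

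All 8 MADS-box genes had at least 1 deposited peak, most of them weak. VRT-2, LOC100827009 and LOC100839211 were listed in all 10 libraries, MADS2 was listed in 6 of 7 ELF3 libraries and in neither PHYC nor PRR37, and the other 4 genes were listed in 1 or 2 ELF3 libraries each. In all, 72 peaks at 16 sites were found, where a site is a run of summits no more than 200 bp apart. Their fold enrichment ran from 1.77 to 3.90 with a median of 2.55. Of the 72 peaks, 57 belonged to the 3 genes listed everywhere. A total of 42 peaks had their summit within 500 bp of a gene end, and 31 summits were inside the gene body and 41 outside it.

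The counts were read against the background of the lists. Of the 80 gene and library pairs 42 were listed, where 43.3% of the pairs over all protein-coding genes were, and 48.3% over the 3357 genes as long as the members. The 3 genes listed in all 10 libraries stood beside 16.4% of all genes and 20.0% of genes of that length. The 4 genes listed in 1 or 2 libraries, all of them ELF3 libraries, stood beside 19.1% of all genes, a share that counts libraries of any target. No share was computed for listing in 1 or 2 libraries of ELF3 alone, and 7 of the 10 lists are of ELF3. None of the 8 was without a peak, where 24.5% of all genes and 18.6% of genes of member length were. At a q-value under 0.01, 1 pair of 80 remained against 1.30% of all pairs, and 1 gene of 8 against 4.04% of genes. The ELF3 lists of ZT20 held 341 peaks under that q-value in LD and 167 in SD. The study states the same filter but reports far more significant ELF3 peaks at that time of day. The filtered counts given here therefore describe the deposited lists and cannot stand for the study's own calls at these genes. The counts of genes rest on 8 members, and nothing particular to the family is read from them.

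**Figure D1:**
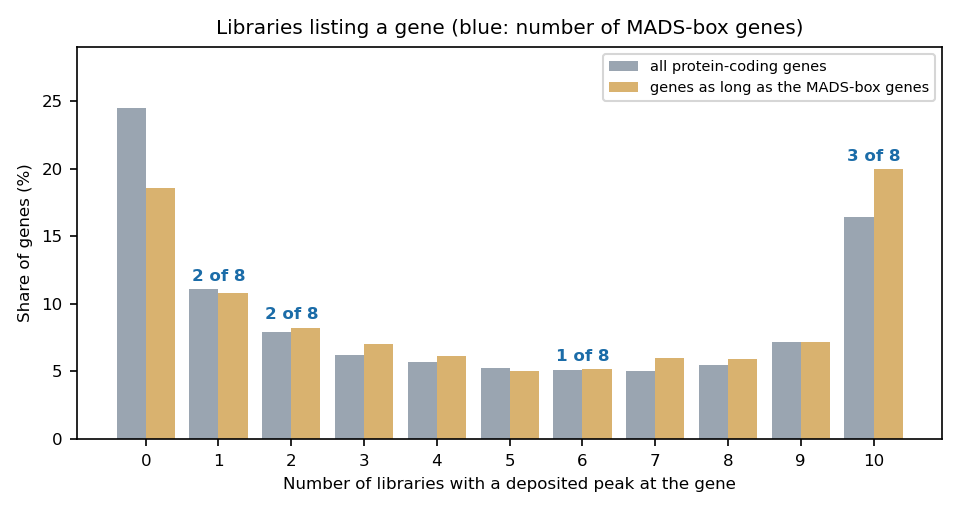
Number of libraries (x axis, 0 to 10) with a deposited peak at a gene, as the share of genes in percent (y axis), for all 25449 protein-coding genes in grey and the 3357 genes as long as the members in ochre. Blue labels give the number of MADS-box genes at each value: 3 of 8 were listed in all 10 libraries, 1 in 6 libraries, 2 in 2 libraries and 2 in 1 library.

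Among the genes of flowering time, VRT-2 was listed by every target. VRT-2 is named after a wheat gene of the SVP group, whose members act on the transition to flowering and on spike development in cereals. Its strongest ELF3 peak was enriched 2.81-, 3.53- and 3.34-fold in LD at ZT0, ZT4 and ZT20, 3.90-, 2.68- and 2.79-fold in SD at the same times, and 3.73-fold in LL. The PHYC libraries gave 3.66- and 3.54-fold and the PRR37 library 3.1-fold. The PHYC and PRR37 values lay within the range of the ELF3 libraries.

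By rank, VRT-2 lay at percentiles 75.4 to 94.1 in ELF3 (mean 85.9 ± 8.3, SD, n = 7) and at 92.3 to 95.1 in the PHYC and PRR37 libraries (mean 93.9 ± 1.4, SD, n = 3). The difference of −8.1 points did not reach an unadjusted p under 0.05 (exact permutation p = 0.158, two-sided, adjusted p = 1 over all genes). In this test and those below, the PHYC pair counts as separate units, although its spread may be technical only. The PHYC and PRR37 libraries cover LD alone and fewer times than ELF3, so target cannot be told apart from light regime and time. The lowest q-value at VRT-2 was 0.0401, in ELF3 SD ZT0.

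The signal at VRT-2 was placed across its higher-coordinate end. An inner site lay inside the gene 76 to 185 bp from that end, and an outer site had its summits 436 to 627 bp beyond it. The peaks with their summit at the outer site together spanned chr1:44245372-44246523 (Bdistachyon_314_v3.1, the build of the study's methods), a stretch that takes in the inner site as well. All 10 libraries had a peak over both sites. In 5 libraries (ELF3 LD ZT4, SD ZT4 and SD ZT20, the second PHYC library and PRR37) it was a single peak of 1012 to 1152 bp, and in the other 5 libraries the sites were 2 separate peaks. Which summit was the stronger differed between libraries. In ELF3 SD ZT0 the inner peak was enriched 3.90-fold and the outer 2.52-fold, while in ELF3 LL ZT0 the inner peak was enriched 2.30-fold and the outer 3.73-fold. A weaker site 1172 to 1297 bp beyond the same end was listed in 5 ELF3 libraries and in PRR37 with 2.16- to 2.38-fold enrichment, and 1 further peak lay inside the gene in ELF3 LD ZT0 (1.95-fold). The nearest end of another protein-coding gene was 3600 bp from the outer site, and other types of gene were not considered.

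LOC100845222, the gene with the synonyms AP1 and FUL2a, was listed far less often. FUL2 genes of wheat act with the vernalization gene VRN1 in the floral transition and in spikelet formation. It was listed only in ELF3 LD ZT0 (2.71-fold, q = 0.816, percentile 81.0) and ELF3 LD ZT4 (3.22-fold, q = 0.157, percentile 92.8). Both summits were inside the gene, 108 and 125 bp from its higher-coordinate end (chr1:58576460-58576691), and were 17 bp apart. In the other 8 libraries the nearest deposited summit was 10.3 to 25.0 kb away.

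Listing in these 2 libraries and no other was found for 1 of 8 members and for 0.212% of all genes. Listing in exactly 2 libraries, whichever they were, was found for 2 of 8 members and for 7.91% of all genes. The 0.212% is the share of 1 pair among many possible pairs, so its small size does not make the gene unusual. The pattern of LD ZT0 and LD ZT4 was noticed after the values were seen, and each of the conditions has 1 library. No peak was listed in SD at the same times, in LL at ZT0 or in either photoperiod at ZT20. PRR37, at the same photoperiod and time as the stronger of the 2 ELF3 peaks, had none. The ELF3 minus other difference for this gene was 24.8 points (exact permutation p = 0.533, two-sided, adjusted p = 1).

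**Figure D2:**
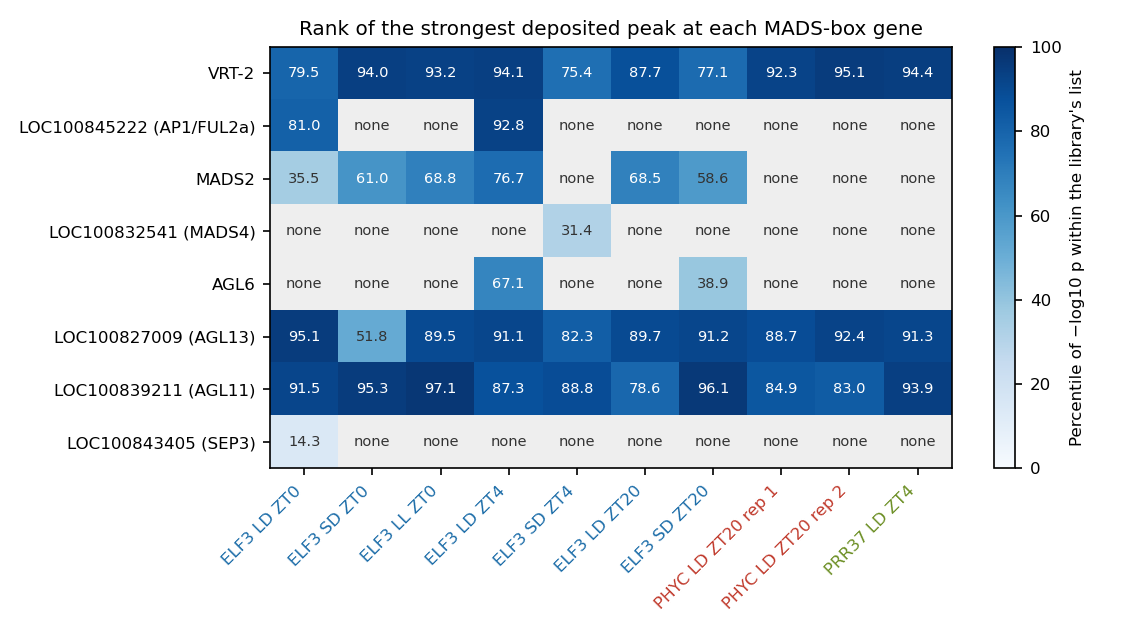
Percentile of the strongest peak at each MADS-box gene (rows) in each library (columns; blue names ELF3, red PHYC, green PRR37), by −log10 p within the library's own list; grey cells marked none have no deposited peak. VRT-2, LOC100827009 and LOC100839211 fill all 10 columns, MADS2 fills 6 ELF3 columns, and LOC100845222 has values in ELF3 LD ZT0 (81.0) and LD ZT4 (92.8) only.

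Of the genes that share a name with class B genes of rice, MADS2 was listed in 6 ELF3 libraries and LOC100832541 (MADS4) in 1. Neither was listed in PHYC or PRR37. In rice, MADS2 and MADS4 are relatives of PISTILLATA and act in the identity of lodicules and stamens, and the orthology of the Brachypodium genes was not examined. The strongest ELF3 peak at MADS2 was enriched 2.21-, 2.83- and 2.72-fold in LD at ZT0, ZT4 and ZT20, 2.55- and 2.29-fold in SD at ZT0 and ZT20, and 2.49-fold in LL. ELF3 SD ZT4, both PHYC libraries and PRR37 had no peak. The percentiles of the 6 libraries with a peak ran from 35.5 to 76.7, and the lowest q-value was 0.929. These are peaks of middle rank with q-values that pass no threshold used here.

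All 6 ELF3 libraries with a peak had a summit at 1 site inside MADS2, 1316 to 1387 bp from its higher-coordinate end (chr4:44690031-44690353). These summits lay within 71 bp of each other. A site by definition holds summits no more than 200 bp apart, and the members' other sites with several peaks spread over 10 to 282 bp. ELF3 LD ZT0 and SD ZT20 had another peak 742 and 752 bp beyond the higher-coordinate end of MADS2, which in ELF3 LD ZT0 was the stronger one (2.21- against 1.95-fold). In the 4 libraries without a peak, the nearest deposited summit lay 21.9 kb (ELF3 SD ZT4), 16.6 and 16.8 kb (PHYC) and 36.2 kb (PRR37) away.

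The mean percentile of MADS2 was 52.7 ± 26.6 in ELF3 (SD, n = 7) and 0 in all 3 other libraries. The difference of 52.7 points had an exact permutation p of 0.0333 (two-sided, 120 splits, smallest possible 0.00833) and an adjusted p of 0.702 over all genes, so it did not pass correction. No gene of the 25449 did, since the smallest adjusted p was 0.503. An unadjusted p under 0.05 was reached by 1 of 8 members and by 5.54% of all genes.

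The unadjusted call was lost (exact permutation p = 0.0833, smallest possible 0.0278) without the first PHYC, the second PHYC or the PRR37 library. It was also lost (exact permutation p = 0.0595 to 0.0714) without ELF3 SD ZT0, LL ZT0, LD ZT4, LD ZT20 or SD ZT20. The groups overlapped, because ELF3 SD ZT4 had no peak either. Percentiles in ELF3 above the others without overlap were found for 0 of 8 members and 1.48% of genes, and below them for 0 of 8 and 0.723%. Listing in 6 or 7 ELF3 libraries and in no other, which MADS2 showed, held for 1.11% of all genes and 1.49% of genes of member length. This rule was not among the planned comparisons and has the form of the MADS2 listing itself. The small shares are therefore a description and no separate evidence on MADS2. The ELF3 lists also reached more genes in general: 42.0% to 49.1% of protein-coding genes were listed per ELF3 library and 37.4% to 41.3% in the PHYC and PRR37 libraries. The part of that difference in the MADS2 result was not tested. In matched conditions MADS2 stood at percentile 76.7 in ELF3 LD ZT4 and was unlisted in PRR37 LD ZT4, and stood at 68.5 in ELF3 LD ZT20 and was unlisted in both PHYC libraries.

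LOC100832541, with the synonym MADS4, was listed in ELF3 SD ZT4 alone. Its peaks were enriched 2.12-fold at 917 bp inside the lower-coordinate end and 1.84-fold at 1609 bp outside it, and the latter lay 270 bp from an end of the neighbour LOC100828190. The stronger peak ranked at percentile 31.4 with a q-value of 1. This was also the ELF3 library in which MADS2 had no peak.

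**Figure D3:**
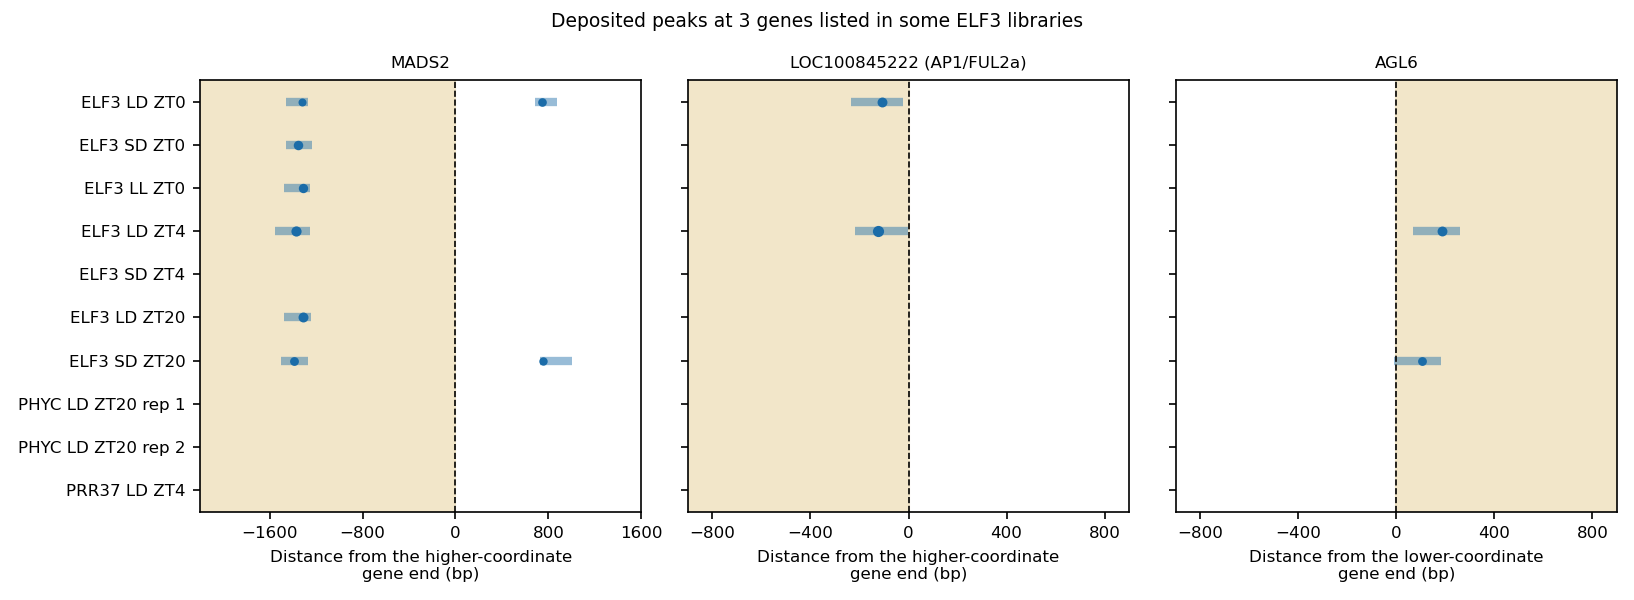
Deposited peaks at MADS2, LOC100845222 and AGL6 (x axis, distance in bp from the gene end named under each panel, shaded side inside the gene) in each of the 10 libraries (rows). Bars span the peak, dots mark the summit and are larger at higher fold enrichment. MADS2 summits of 6 ELF3 libraries line up 1316 to 1387 bp inside the gene, and the PHYC and PRR37 rows are empty in all 3 panels.

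The genes of the AGL6 group differed in how often they were listed. AGL6 genes act in floral meristem and organ identity in rice, and AGL13 is the sister gene of AGL6 in Arabidopsis. AGL6 itself was listed in ELF3 LD ZT4 (2.70-fold, percentile 67.1) and ELF3 SD ZT20 (2.28-fold, percentile 38.9), both with a q-value of 1. The summits were 185 and 105 bp inside its lower-coordinate end and 80 bp apart. No other library listed it.

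LOC100827009, the gene with the synonym AGL13, was listed in all 10 libraries. Its strongest peak was enriched 3.68-, 3.39- and 3.43-fold in ELF3 LD at ZT0, ZT4 and ZT20, 2.56-, 2.79- and 3.18-fold in SD, and 3.33-fold in LL. The PHYC libraries gave 3.26- and 3.29-fold and PRR37 gave 2.82-fold. The lowest of these was ELF3 SD ZT0, and the PHYC and PRR37 values lay within the range of the ELF3 libraries. The percentile averaged 84.4 ± 14.9 in ELF3 (SD, n = 7) and 90.8 ± 1.9 in the other libraries (SD, n = 3). The difference of −6.4 points did not reach an unadjusted p under 0.05 (exact permutation p = 0.567, two-sided, adjusted p = 1).

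The main site of LOC100827009 lay 292 to 359 bp outside its lower-coordinate end, and the end of the neighbouring gene LOC100846677 was 298 bp away. The site therefore cannot be assigned to either gene by distance. All 10 libraries had a peak over it and 9 had their summit there, with 2.79- to 3.68-fold enrichment and a lowest q-value of 0.0633. A weaker site 42 to 209 bp inside the gene was listed in 7 libraries (2.15- to 2.56-fold). ELF3 SD ZT0, with a percentile of 51.8 against 82.3 to 95.1 in the 6 other ELF3 libraries, had a single peak of 541 bp that spanned the outer site but had its summit at the inner one.

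LOC100839211, with the synonym AGL11, had the peak of lowest q-value among the 8 genes. AGL11 of Arabidopsis is SEEDSTICK, a class D gene of ovule and seed identity. Whether LOC100839211 is its ortholog was not examined, since only the synonym links them here. Its strongest peak in ELF3 was enriched 2.84-, 2.72- and 2.50-fold in LD at ZT0, ZT4 and ZT20, 3.45-, 2.61- and 3.43-fold in SD, and 3.79-fold in LL. PHYC gave 2.79- and 2.67-fold and PRR37 gave 2.78-fold. ELF3 LL ZT0, SD ZT0 and SD ZT20 were the highest, and the 4 other ELF3 libraries overlapped PHYC and PRR37.

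The q-value of LOC100839211 in ELF3 LL ZT0 was 0.00901, the only one of the 72 peaks under 0.01, and in ELF3 SD ZT0 it was 0.0223. In percentiles the gene stood at 78.6 to 97.1 in ELF3 (mean 90.7 ± 6.5, SD, n = 7) and at 83.0 to 93.9 in the others (mean 87.3 ± 5.8, SD, n = 3). The difference of 3.4 points did not reach an unadjusted p under 0.05 (exact permutation p = 0.467, two-sided, adjusted p = 1).

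All 10 libraries placed the strongest peak of LOC100839211 at 1 site outside its higher-coordinate end (chr3:57503635-57504175), with peaks of 434 to 539 bp and summits 472 to 754 bp from the end. The summit at 754 bp was that of ELF3 LL ZT0, and the other 9 were at 472 to 562 bp. A weaker site at 104 to 139 bp beyond the same end was listed in 4 ELF3 libraries and 1 PHYC library (2.14- to 2.38-fold). Another lay inside the opposite end, at 143 to 229 bp, in 4 ELF3 libraries (2.02- to 2.62-fold). The nearest end of another protein-coding gene was 15251 bp from the main site, and other types of gene were not considered.

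LOC100843405, with the synonym SEP3, had the fewest deposited peaks of the 8 genes. SEP3 is a class E factor that bridges other MADS-box proteins in Arabidopsis floral complexes. It had 1 peak, in ELF3 LD ZT0, 729 bp inside its lower-coordinate end, with 1.77-fold enrichment, a q-value of 1 and a percentile of 14.3. No SD, PHYC or PRR37 library listed it.

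**Figure D4:**
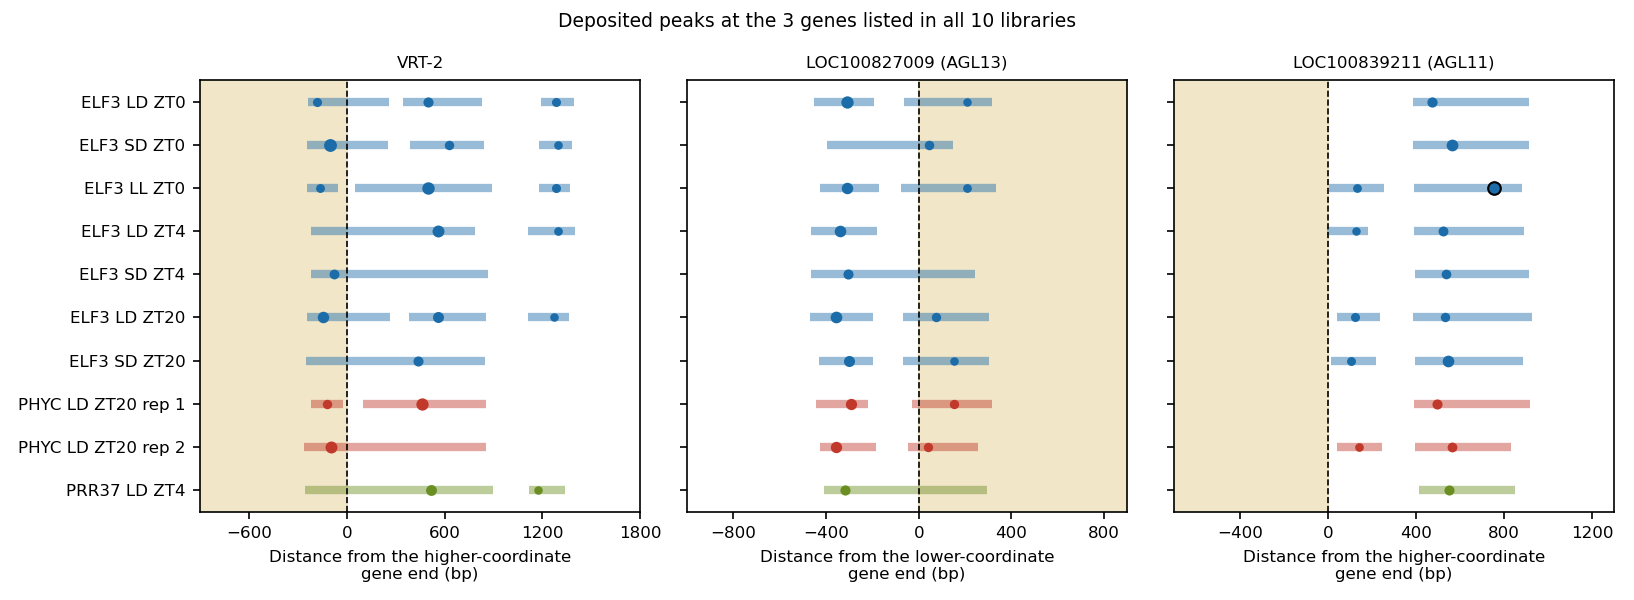
Deposited peaks near 1 end of VRT-2, LOC100827009 and LOC100839211 (x axis, distance in bp from the gene end named under each panel, shaded side inside the gene) in each of the 10 libraries (rows). Bars span the peak and dots mark the summit, larger at higher fold enrichment, with a black outline for the q-value under 0.01 in ELF3 LL ZT0. Each gene has deposited peaks over the same stretch in ELF3 (blue), PHYC (red) and PRR37 (green), and VRT-2 has 1 wide peak in 5 libraries and 2 adjoining peaks in the other 5.

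Day length was compared in ELF3 at 3 times. LD minus SD percentiles of LOC100839211 were −3.9, −1.5 and −17.6 points at ZT0, ZT4 and ZT20, lower in LD at all 3 times, which was found for 1 of 8 members and for 4.97% of all genes. Only the last of these exceeded the median gap between LD and SD at that time over all genes listed in both, which was 11.6 points. An exact sign-flip permutation test over the 3 times gave p = 0.25, the smallest that 3 times allow. This test takes the 3 times as repeats of 1 contrast, although they are different stages of the day. Neither this p-value nor those below can therefore decide on an effect of day length. None of the 8 was higher in LD at all 3 times, against 5.17% of genes.

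For VRT-2 the differences were −14.5, 18.7 and 10.6 points (exact permutation p = 0.75) and for LOC100827009 they were 43.2, 8.8 and −1.5 points (exact permutation p = 0.5). MADS2 differed by −25.5, 76.7 and 9.9 points (exact permutation p = 0.75). The 76.7 points at ZT4 come from the absence of a peak in SD. The median gap at ZT0 and ZT4 over all genes was 13.4 and 13.6 points. For comparison, the same-labelled PHYC libraries differed by 2.7, 3.7 and 1.9 points at VRT-2, LOC100827009 and LOC100839211, and by a median of 11.9 points over all genes listed in both. Constant light, with 1 library at ZT0, gave no common order over the genes. LL minus LD was 13.7 points for VRT-2, −5.6 for LOC100827009, 5.6 for LOC100839211 and 33.3 for MADS2, and −81.0 for LOC100845222, which LL did not list. LL minus SD was −0.8 points for VRT-2, 37.7 for LOC100827009, 1.7 for LOC100839211 and 7.7 for MADS2, and LOC100845222 was listed in neither.

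Matched conditions placed the targets side by side for the 3 genes listed everywhere. At LD ZT4, ELF3 and PRR37 ranked VRT-2 at percentiles 94.1 and 94.4 and LOC100827009 at 91.1 and 91.3, while LOC100839211 was at 87.3 in ELF3 and 93.9 in PRR37. At LD ZT20, VRT-2 was at percentile 87.7 in ELF3 and at 92.3 and 95.1 in PHYC. LOC100827009 was at 89.7 in ELF3 and at 88.7 and 92.4 in PHYC, and LOC100839211 was at 78.6 in ELF3 and at 84.9 and 83.0 in PHYC. With 1 ELF3 library in each condition these differences were not tested.

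**Figure D5:**
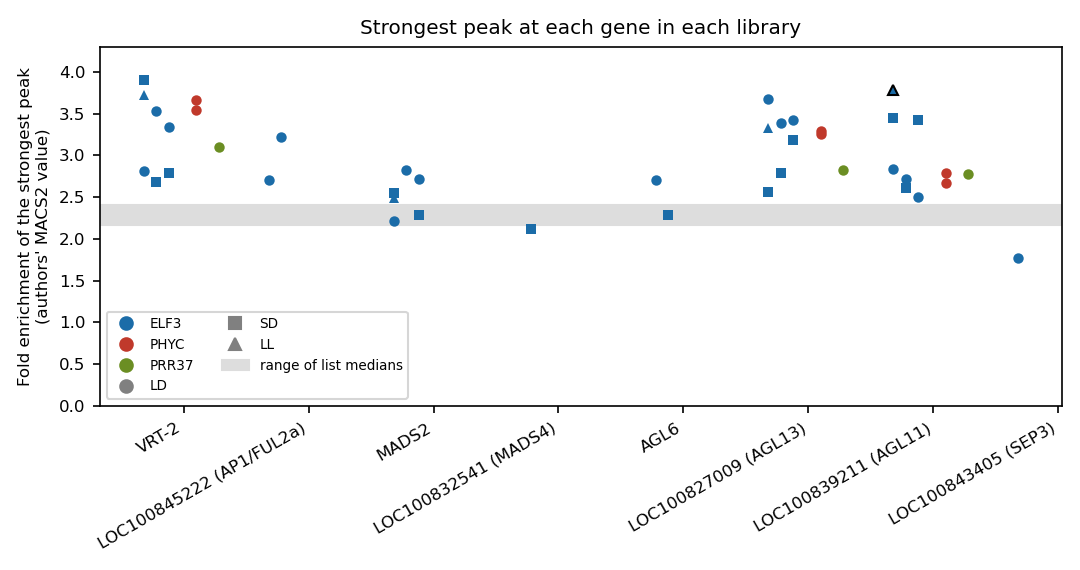
Fold enrichment of the strongest deposited peak (y axis, the authors' MACS2 value, linear from 0) at each MADS-box gene (x axis) in each library that listed it. Colours give the target (blue ELF3, red PHYC, green PRR37), shapes the light regime, the black outline the q-value under 0.01, and the grey band the range of the list medians, 2.16 to 2.40. VRT-2, LOC100827009 and LOC100839211 lie above the band in every library, at 2.50- to 3.90-fold. The values of LOC100832541 and LOC100843405, each listed in 1 library, lie below it. The band is from all peaks of a list and the points are the strongest peak per gene, so the 2 are not like measures. The share of other genes above the band was not computed.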

How the data were processed

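ChIP-seq peak lists of 10 libraries were used, 1 per library. The deposited lists hold, per peak, the authors' MACS2 fold enrichment (a ratio), −log10 p and −log10 q (p-values and q-values), the summit and a display score. The score deposited by the authors was not used. The study's methods name bwa and MACS2 with the build Bdistachyon_314_v3.1, and the submitters' notes name Trimmomatic, Bowtie2, Picard, deepTools and MACS2 with an Arabidopsis build (TAIR10). The deposited chromosome names are those of Brachypodium. The sources used here do not give whether peaks were called against an input control. The lowest −log10 p of a list was 1.0 to 1.007, so the lists were taken as called at p under 0.1 without the study's q filter. The fold and p-value of a peak depend on depth, which is unknown, and ranks within a list were compared for that reason.

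Gene spans came from the RefSeq table of assembly Bd21, and its coordinates are not printed because the build is named differently. Peak coordinates count from 1. ELF3 was compared with the other targets per gene by an exact two-sided permutation over 120 splits, with Benjamini-Hochberg adjustment over 25449 genes, and LD with SD by exact sign flips over 3 times. All 8 genes were named, with every site. The members and lists were chosen with earlier results of these data known. A wider list of MADS-box genes and promoter motifs had been planned but were not used here, since the table gives no product, strand or sequence. Alternatives were other gene extensions, thresholds, rank measures and omission of libraries. Functions were tested on simulated data. Python 3.11.15, numpy 2.4.6, pandas 2.3.3 and matplotlib 3.10.9 were used.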

Additional observations from a re-analysis of the deposited data

Results flagged for a closer look

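For VRT-2, the ELF3 percentile was lower in LD than in SD at ZT0 (by −14.5 points) and higher at ZT4 (18.7) and ZT20 (10.6). For LOC100827009 it was higher in LD at ZT0 (43.2) and ZT4 (8.8) and lower at ZT20 (−1.5). They are given here because the single LD and SD libraries moved in opposite directions at different times. With 1 library per condition the difference between times was not tested. At LOC100827009 the SD library of ZT0 placed its summit at the inner of the 2 sites, where the other 9 libraries had their strongest summit at the outer one. No condition had enough libraries for a search for outlying samples.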

How the results depend on the processing

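The 42 listed pairs fell to 26 with peaks of −log10 p above 3 and were 36 to 42 under the other gene extensions and the summit rule, and 39 without either PHYC library. The 1 pair with q under 0.01 became 0 for the gene body without extension, 0 at q under 1e-05, 3 at q under 0.05 and 11 among the 1000 strongest peaks of each list, and stayed at 1 without either PHYC library. The count of members with an unadjusted p under 0.05 for ELF3 against the other targets was 1 by fold percentile, with a 1 kb extension and by −log10 p itself, and 0 without PRR37. Over the omission of single libraries it was 0 to 1, with the MADS2 difference at 48.7 to 61.5 points and its exact permutation p at 0.0119 to 0.0833. The omission of single ELF3 libraries was added after seeing the data. The count of members with LD on the same side of SD at all 3 times was 1 in all 3 alternatives. LD and SD were matched by time in the comparison itself. By replicate number, no paired analysis was possible because the labels give the groups compared no shared numbers. Depth is unknown, so an unlisted gene may hold signal below the threshold of the list.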
